A study of Mus musculus with 9 samples.

Results

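The baseline transcriptome of control MLL-AF9 leukaemia cells was read from the 3 libraries titled as controls, out of 9 in the series. MLL-AF9 is a fusion oncogene that joins the histone methyltransferase gene Kmt2a (MLL) to Mllt3 (AF9), and the cells are murine leukaemia cells that had been passed through 3 rounds of transplantation. Each control sample had been transduced with a non-targeting short hairpin RNA (shRNA) and was collected 4 days later. The labels name this hairpin a scramble, the study's design text names a hairpin against luciferase, and which of them was used is not given. The other 6 samples carried 1 of 2 shRNAs against Syncrip and were not used for the levels below. The control samples were transduced and processed one by one, but all come from 1 labelled cell line, and nothing says that they came from separate mice, so the spread over them may be technical. The labels give the cells neither sex nor a culture medium.

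The MLL-AF9 protein binds chromatin and recruits elongation factors and the methyltransferase DOT1L, which keeps a set of progenitor genes switched on. The best known of these are genes of the Hoxa cluster and Meis1, whose products bind DNA together with PBX proteins. In bone marrow these genes are active in stem and early progenitor cells and are switched off as granulocytes and monocytes mature. MLL-AF9 cells in mice are described as resembling granulocyte and monocyte progenitors.

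Levels are given in CPM, the count of a gene scaled to 1000000 counts of the library's effective size, as the mean ± SD over the 3 libraries (n = 3), or as the values of control libraries 1, 2 and 3 in that order. Levels of different genes were also compared as CPM per kilobase (kb) of the longest annotated transcript. Ranks count from the highest level and leave out 3 ribosomal RNA entries (Gm26924, mt-Rnr1 and mt-Rnr2), which held 7.86%, 8.29% and 4.77% of the counts. No test was made, because a single group was studied: 2 genes are said to be apart where all 3 values of one lie above all 3 values of the other. A gene listed at 0 had no count, and 3 counts, the limit that a count of 0 allows, correspond to 0.170, 0.221 and 0.148 CPM in the 3 libraries. These limits cover counting error only.

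The control libraries held 18268263, 13683660 and 19483923 counts. Of 38923 symbols, 11248 (28.9%) reached 1 CPM in all 3 libraries, and 10135 of 21336 protein-coding genes (47.5%) did. At least 10 CPM was reached by 7684 symbols, 100 CPM by 1873 and 1000 CPM by 83. The median level of the symbols at 1 CPM or more was 25.1 CPM. The 10 genes with the most counts held 5.93% ± 0.20 (SD, n = 3) of the counts outside ribosomal RNA, the first 100 held 21.8% ± 0.096, and the first 1000 held 58.1% ± 0.61. Ribosomal protein genes took 4.04% ± 0.30 of all counts, pseudogenes 3.12% ± 0.12, mitochondrial mRNAs 0.905% ± 0.279 and long noncoding RNAs 0.541% ± 0.101. Some high pseudogene entries, such as Rps13-ps2, are copies of ribosomal protein genes, and some mitochondrial mRNAs had no count. The shares of ribosomal protein genes and mitochondrial mRNAs are therefore uncertain. Long noncoding RNAs were classed by annotated type, which takes in processed transcripts such as the entries Ifi30 and Cct6a, so their share is uncertain too. Control library 3 had the highest share of mitochondrial mRNA, 1.23% against 0.759% and 0.730%, and the lowest share of ribosomal RNA.

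The highest level of any gene was that of Actb, the cytoskeletal actin, at 8226, 9526 and 8143 CPM. Tmsb4x, which binds actin monomers, and Hsp90ab1, a chaperone, ranked 3 and 4 with means of 6587 and 6340 CPM, followed by S100a8 and S100a9, which form the calcium-binding protein calprotectin of myeloid cells. Per kb, S100a8 came first and S100a9 second. Prtn3, which encodes proteinase 3 of neutrophil granules, ranked 22 and Elane, neutrophil elastase, ranked 35. So the calprotectin genes S100a8 and S100a9 and the granule genes Prtn3 and Elane stood among the first 35 symbols by CPM. Atf4, the transcription factor of the amino acid response, ranked 23 with 2215, 2242 and 2959 CPM.

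**Figure D1:**
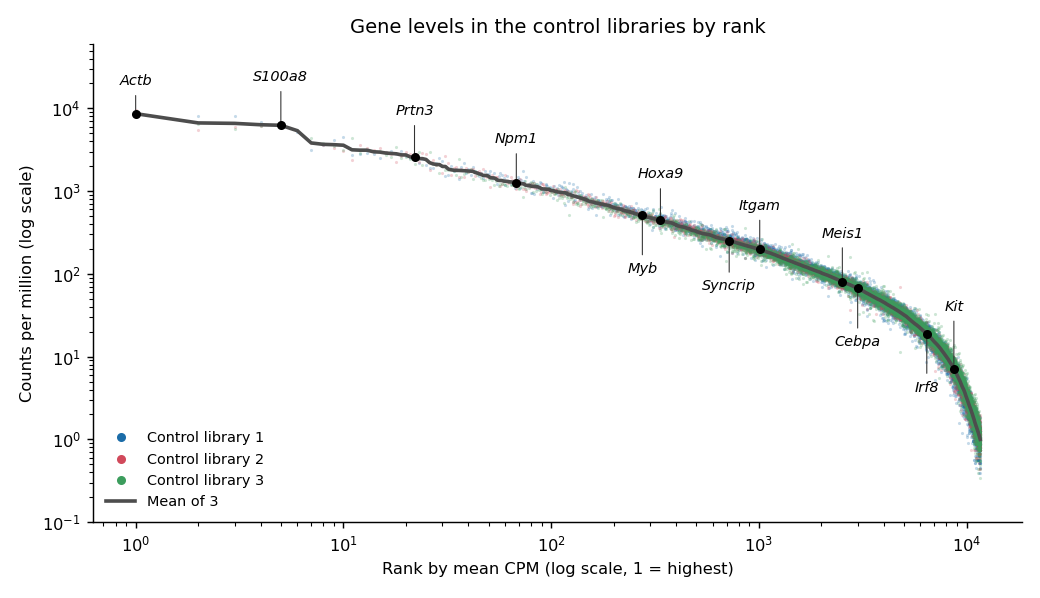
Level in CPM (log scale) of each symbol at a mean of 1 CPM or more against its rank (log scale). Points are the single control libraries, the line is their mean, and the labelled genes run from Actb at rank 1 to Kit at rank 8690, with Hoxa9 at 336 and Meis1 at 2524.

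Of the 5 genes chosen to check the label, 4 were at 50 CPM or more in each library and 1 was low. Hoxa9 was at 423, 420 and 490 CPM (rank 336), Myb, a transcription factor needed for blood progenitors to proliferate, at 531, 477 and 529 CPM (rank 275), and Meis1 at 78.5, 83.4 and 80.2 CPM (rank 2524). Itgam, the integrin chain CD11b of myeloid cells, was at 195, 209 and 186 CPM (rank 1010). Kit, the receptor of stem cell factor and a marker of immature cells, was at 6.81, 6.76 and 7.82 CPM and ranked 8690. The 4 other markers therefore lay far above Kit in every library. In GRCm38 (the annotation's name for mm10) Hoxa9 lies at chr6:52223100-52231089, Myb at chr10:21124935-21160984, Meis1 at chr11:18879817-19018985, Itgam at chr7:128062640-128118491 and Kit at chr5:75574916-75656722. The level of Itgam is uncertain, because 72.2% of the 50-base words of its transcript also occur in the annotated gene Gm49368, and counting may have left such reads out or given them to the other gene.

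The Hoxa cluster was active in its middle part. HOXA proteins set positional identity in the embryo and hold blood progenitors in an immature state. Hoxa7 was at 279, 271 and 270 CPM, and Hoxa10 at 96.3, 109 and 110 CPM. Hoxa9 was above Hoxa7, and Hoxa7 above Hoxa10, in every library by CPM. Per kb, Hoxa9 (138 ± 12.3) and Hoxa7 (135 ± 2.41) overlapped, and both stood apart from Hoxa10 (41.0 CPM per kb). Hoxa5 was at 27.8, 36.1 and 70.8 CPM and Hoxa3 at 5.22, 7.57 and 16.2 CPM, with control library 3 the highest for both. Without control library 3, the mean of Hoxa3 was 0.648 times its value over all libraries. Hoxa2 and Hoxa4 lay between 1.25 and 5.46 CPM in every library, Hoxa6 and Hoxa11 stayed under 1 CPM, and Hoxa13 had no count. The genes at the Hoxa13 end of the cluster, Hoxa11 and Hoxa13, were thus its lowest.

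The other Hox clusters were nearly silent. Of 27 genes of the Hoxb, Hoxc and Hoxd clusters, 16 were listed at 0 and 25 stayed under 1 CPM. The exceptions were Hoxb4 at 7.44, 8.82 and 12.2 CPM and Hoxb13 at 5.79, 6.54 and 7.38 CPM. Summed, these 27 genes gave 13.5, 15.8 and 19.7 CPM, while the 11 Hoxa genes gave 841, 855 and 971 CPM.

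Of the partners of HOX proteins, Pbx3, which forms complexes with HOXA9 and MEIS1, was at 116, 109 and 107 CPM, and Pbx2 at 78.5, 68.3 and 67.2 CPM. Per kb, Pbx3 took 62.2% ± 0.92 of the family, but Pbx2 led when the union of exons served as length. Meis1 took 98.2% ± 0.33 of its family, Meis2 had no count and Meis3 stayed under 1 CPM. The related factor Pknox1 was at 55.0, 67.9 and 74.3 CPM.

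**Figure D2:**
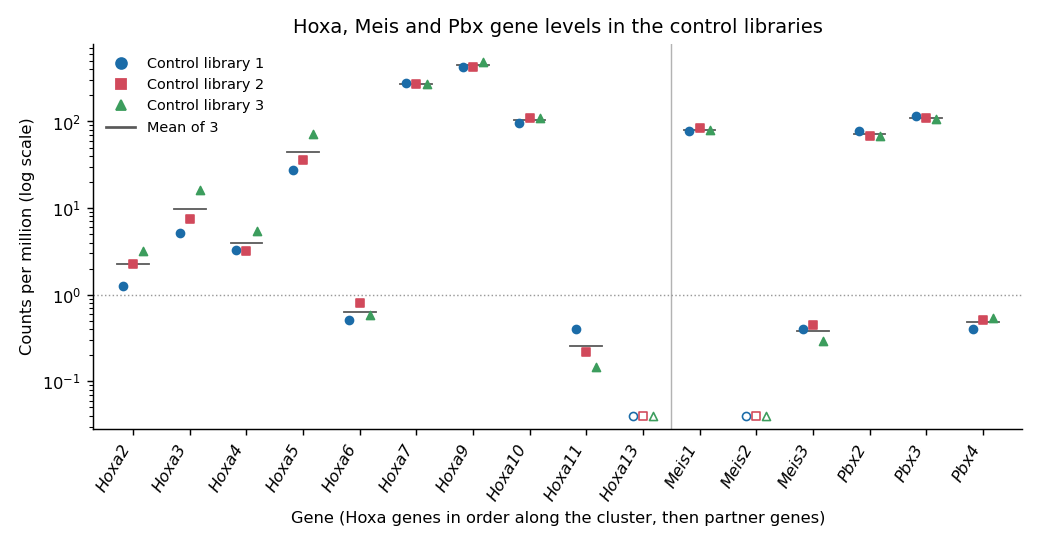
Level in CPM (log scale) of Hoxa genes, in order along the cluster, and of Meis and Pbx genes, with 1 symbol for each control library and a line at their mean. Open symbols at the bottom mark libraries with no count, and the dotted line is at 1 CPM: Hoxa7 and Hoxa9 lie highest and Hoxa13 and Meis2 have no count in any library.

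All but 1 of the 21 listed genes of the MLL complex and its fusion partners were at 1 CPM or more. Kmt2a was at 130, 156 and 194 CPM. Among subunits of its complex, Wdr5 was at 168, 153 and 153 CPM, Ash2l at 197, 165 and 167, Rbbp5 at 75.4, 60.6 and 51.4 and Dpy30 at 90.1, 85.9 and 70.7. Men1, which encodes menin, the adaptor that ties MLL to chromatin, was at 23.1, 24.4 and 20.3 CPM. Per kb the small subunit gene Dpy30 led the list with 104 ± 12.96, above Wdr5 with 54.7 ± 3.03. Of the cofactors that MLL fusions recruit, Dot1l was at 92.1, 93.7 and 107 CPM, Aff1 at 44.2, 38.7 and 37.6 and Mllt1 at 11.2, 14.1 and 12.9. The P-TEFb genes Ccnt1 and Cdk9 had means of 116 and 24.9 CPM. Mllt3 itself was low, at 2.67, 3.31 and 4.82 CPM. The tables hold no separate entry for the fusion transcript, and whether reads of it add to Kmt2a or Mllt3 cannot be told from them.

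Among transcription factors of stem and progenitor cells, 19 of 25 were at 1 CPM or more and 8 at 100 CPM or more. Lmo2, a bridging protein of blood transcription complexes, was the first per kb (232 ± 18.4), apart from Myb (139 ± 8.34), which in turn was apart from Nfe2 (81.6 ± 6.23). By CPM, Lmo2 lay below Myb in every library, at 360, 405 and 420 CPM. Tal1, the usual partner of Lmo2, was at 0.397, 0.368 and 0.0984 CPM, whereas the related Lyl1 was at 106, 139 and 171 CPM. Mef2c, a factor described as a target of MLL fusions, was at 223, 238 and 196 CPM. Of the Myc family Myc took 99.9% ± 0.16 per kb, at 33.6, 42.3 and 43.1 CPM. Gata2 was at 12.3, 14.9 and 12.8 CPM and Erg at 29.5, 41.2 and 46.5. Mecom, which encodes the stem cell factor EVI1, had 1 count in the 3 libraries.

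Of the factors of granulocytes and monocytes, 28 of 31 reached 1 CPM in all libraries. Spi1, which encodes the myeloid master regulator PU.1, was at 371, 445 and 355 CPM. Cebpb was at 216, 265 and 219 CPM, Cebpe, a factor of late granulocyte maturation, at 118, 164 and 153, and Cebpa, which drives entry into that lineage, at 67.5, 69.3 and 63.2. Cebpb and Cebpe lay above Cebpa in every library, both by CPM and per kb. Gfi1, a repressor that favours granulocytes, was at 232, 199 and 214 CPM, while Irf8 and Klf4, which favour monocytes, were at 17.4, 19.1 and 20.2 CPM and at 0.738, 0.735 and 1.62 CPM. Per kb, Spi1 (192 ± 23.7), Cebpb (155 ± 18.4), Id1 (140 ± 10.4) and Cebpe (117 ± 19.4) each overlapped with their neighbours among these 4, and Cebpe stood apart from Gfi1 (75.1 ± 5.75) below it.

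Within the Runx family, Runx3 took 76.2% ± 2.65 of the summed CPM per kb and Runx2 17.4% ± 3.17. Runx1, the member best known from human myeloid leukaemia, was at 45.8, 50.1 and 43.6 CPM. Factors that define other blood lineages were mostly missing: 13 of 17 stayed under 1 CPM, with Pax5 (B cells) at 0 and Gata1 (red cells and platelets) at 0.284, 0.221 and 0.295 CPM. The exceptions were Tcf4, a partner of many lineage factors, at 155, 156 and 145 CPM, Tcf3 at 27.7, 27.2 and 29.1, the T-cell factor Bcl11b at 17.0, 18.2 and 23.5, and Mitf, a mast cell factor, at 6.59, 5.44 and 7.72.

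Genes of neutrophil granules and of the oxidase, listed together with S100a8 and S100a9, formed the highest of the lineage lists. All 27 were at 1 CPM or more, 18 at 100 CPM or more and 6 at 1000 CPM or more, and their median was 272 CPM, against 25.1 for all symbols at 1 CPM or more. S100a8 was at 6873, 5883 and 5986 CPM and S100a9 at 5156, 5426 and 5548. Prtn3 was at 2811, 2767 and 2152 CPM, Elane at 1848, 1935 and 1557, and Ctsg, cathepsin G, at 962, 940 and 813. These serine proteases are stored in primary granules, which form in promyelocytes. Ngp, a protein of the later secondary granules, was at 1426, 1548 and 1361 CPM, Camp at 341, 238 and 316, and Lcn2 at 197, 265 and 161. Mpo, the peroxidase of the same primary granules, was much lower, at 28.0, 27.0 and 15.6 CPM. Ltf, another secondary granule protein, was at 13.9, 14.5 and 13.03 CPM. The genes of one granule type were therefore spread over a wide range of levels. Per kb S100a8 (12545 ± 1093), S100a9 (10360 ± 387), Prtn3 (2514 ± 359), Elane (1809 ± 201) and Ngp (1182 ± 77.6) stood apart from each other, and Ngp overlapped with the oxidase gene Cyba.

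The starts of several granule genes hold the letters GAGGAAGT, a core word of the sites that PU.1 and other ETS factors bind. RefSeq promoter windows of 300 bases (250 before and 50 after the annotated start, GRCm38.p6) were searched on both strands for CCGGAAGT or GAGGAAGT. Of 22 windows of the granule list, which also holds S100a8 and oxidase genes, 27.3% held one of them, and of all 32851 windows 6.93%. By level the share was 12.7% at 1000 CPM or more, 12.3% at 100 to 1000, 12.5% at 10 to 100, 9.53% at 1 to 10 and 4.32% under 1 CPM. Of the other sets with at least 20 windows, 6 had shares of 15% or more, sets of myeloid and of other genes alike: surface molecules (21.9%), receptors of chemoattractants and SR splicing factors (19.0% each), ribosomal protein genes (18.4%), signalling genes (16.1%) and monocyte genes (3 of 20 windows). Of the 32 windows of the granulocyte and monocyte transcription factors none held either word. The matched stretches of genes of the granule list are shown to set the same letters beside very different levels. They are written 5′ to 3′ on the gene's strand, with the match in capitals. ACTTCCTC is GAGGAAGT read on the other strand.
S100a8: ccaacactcccACTTCCTCagactcagaaa
Prtn3: caaactggaagGAGGAAGTgggacccacag
Elane: cgtgtcccaggGAGGAAGTagggctgtggc
Mmp8: taactagcacaACTTCCTCattacacacag
Ctsc: gtcactaactaACTTCCTCaggccacctcg
Mpo: gtggagagagaGAGGAAGTtgcctttgtcc
They lie on the plus strand at chr3:90668888-90668917, chr10:79879561-79879590, chr10:79886216-79886245, chr9:7558197-7558226, chr7:88277923-88277952 and chr11:87793549-87793578. The matches begin 172, 95, 85, 221, 151 and 224 bases before the annotated start. Prtn3 and Elane, neighbours on chromosome 10, and Mpo hold the word in the same orientation, with mean levels of 2577, 1780 and 23.5 CPM. A match of letters is a description and does not show a bound site.

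The TATA word TATAAA, which places the start in some promoters, was sought 40 to 15 bases before it on the gene's strand. It stood in 1.99% of all windows, in 3.64% of those of genes under 1 CPM and in 0.756% of those of genes at 10 to 100 CPM. S100a8 is one of 2 windows with it among 79 at 1000 CPM or more; the stretch is shown because this is the highest myeloid gene, at chr3:90669031-90669060 on the plus strand.
S100a8: agctttcctcTATAAAagcagctgacactt

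Genes of monocytes and macrophages were lower. Of 26, 20 were at 1 CPM or more and 4 at 100 CPM or more, with a median of 15.04 CPM. Lgals3 (434, 507 and 509 CPM) and the lysosomal proteases Ctsd (702, 670 and 778) and Ctsb (184, 202 and 207) led, though 36.5% of the words of Ctsd are shared with Gm49369. Csf1r, the macrophage growth factor receptor, was at 44.2, 55.6 and 73.9 CPM, and the surface protein Cd14 at 13.5, 12.9 and 21.5. Macrophage markers were divided. Cd68, a lysosomal protein, was at 63.2, 71.8 and 64.8 CPM, Emr1 (F4/80) at 22.03, 29.6 and 28.7 and Mertk at 1.31, 1.76 and 2.02, while C1qa, C1qb, C1qc, Mrc1 and Marco had means under 1 CPM. The lysozyme gene Lyz2, made by granulocytes and monocytes alike, was at 356, 449 and 539 CPM.

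**Figure D3:**
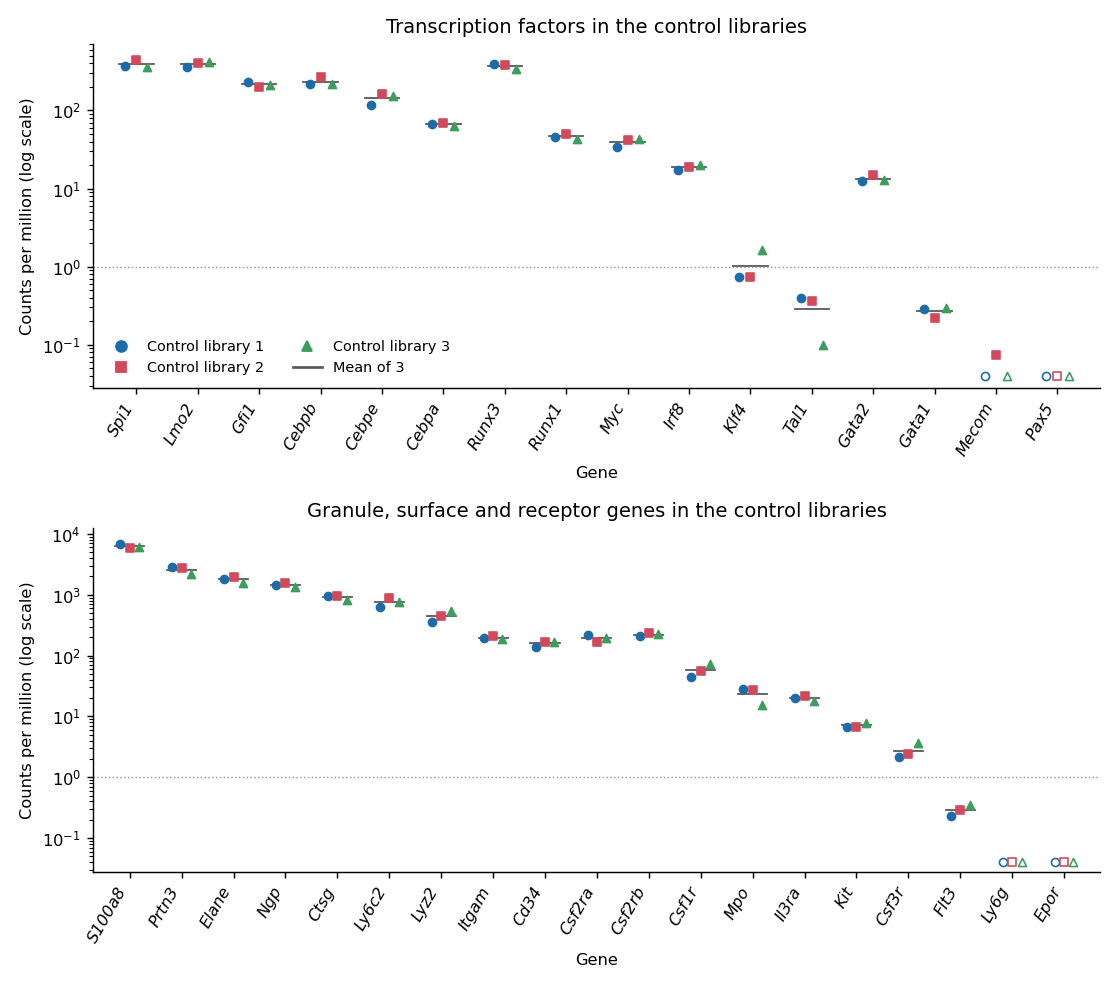
Levels in CPM (log scale) of transcription factors (upper plot) and of granule, surface and receptor genes (lower plot), with 1 symbol for each control library, a line at the mean of 3 and open symbols at the bottom for libraries with no count. Spi1, Lmo2 and Runx3 lie highest in the upper plot and S100a8 in the lower one, where Ly6g and Epor have no count in any library.

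Among surface molecules used to sort blood cells, Cd47, the signal that restrains phagocytes, was at 854, 809 and 770 CPM, Spn (CD43) at 702, 624 and 553 and Cd44 at 350, 331 and 274. Ly6c2, a marker of monocytes and their progenitors, was at 635, 895 and 747 CPM, and 33.3% of its words are shared with Ly6c1. Cd34, a marker of progenitors, was at 140, 165 and 169 CPM, and the Fc receptor gene Fcgr3 at 211, 241 and 241. Markers of stem cells were low: Ly6a (SCA-1) was at 6.25, 6.84 and 5.16 CPM, Procr at 1.70, 1.18 and 2.36, and Slamf1 had a mean under 1 CPM. Ly6g, the marker of mature neutrophils, had no count in any library. Thus Cd34, Fcgr3 and Itgam stood at 100 CPM or more beside low Kit and Ly6a.

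Among receptors of growth factors, the chains for GM-CSF were high and those for G-CSF, FLT3 ligand and stem cell factor low. Csf2rb, the shared signalling chain of the GM-CSF, IL-3 and IL-5 receptors, was at 209, 231 and 224 CPM, and Csf2ra, the GM-CSF chain, at 217, 169 and 197. Il3ra, the IL-3 chain, was at 20.4, 22.1 and 17.9 CPM. Csf2rb took 91.8% ± 1.18 per kb of the pair it forms with Csf2rb2, with 18.9% of its words shared. Csf3r, the G-CSF receptor of granulocytes, was at 2.16, 2.43 and 3.64 CPM, Flt3 at 0.227, 0.294 and 0.344, and Epor, the erythropoietin receptor, at 0. The highest of the list was Ifngr1, an interferon gamma receptor chain, at 261, 265 and 253 CPM, apart from all other listed receptors per kb (123 ± 2.87, against 85.4 ± 10.5 for Csf2ra). Of the list, 28 of 36 genes were at 1 CPM or more.

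Of 32 listed ligands, 17 were at 1 CPM or more in all libraries and 13 under 1 CPM in all, with a median of 2.32 CPM. Among growth factors of blood cells, Csf1, the ligand of Csf1r, was at 14.8, 10.7 and 21.6 CPM and Flt3l at 10.9, 9.19 and 9.89. Il3, Kitl (stem cell factor), Thpo, Epo and Cxcl12 were listed at 0, and Csf2 and Csf3 stayed under 1 CPM. Chemokines led the list: Ccl6 was at 505, 588 and 614 CPM, Ccl9 at 175, 261 and 242, Ccl2 at 90.9, 80.7 and 108 and Ccl3 at 43.7, 42.2 and 102, with control library 3 apart for Ccl3. Tgfb1 was at 70.5, 95.1 and 90.1 CPM. The inflammatory cytokines Il1b, Tnf and Il6 were low, with ranges of 2.21 to 4.03, 4.26 to 12.4 and 0.0492 to 0.147 CPM. Cxcr4, the receptor that keeps cells in the marrow, was at 234, 180 and 152 CPM and led the 25 receptors of chemoattractants and microbial products. Ccr2, which draws monocytes to tissue, was at 38.4, 43.7 and 51.3 CPM, and Cxcr2, the neutrophil chemokine receptor, at 1.14, 0.882 and 1.13.

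Below the receptors, all 34 listed signalling genes were at 1 CPM or more. Per kb the kinase gene Mapk3 (137 ± 35.8), the adaptor gene Grb2 (96.8 ± 5.31), the phosphatase gene Ptpn6 (75.4 ± 4.65) and Pik3cd (70.1 ± 14.6), the leukocyte form of phosphoinositide 3-kinase, were the first. By CPM, Pik3cd was the highest of the list, with a mean of 345 CPM. Pik3cd took 79.1% ± 2.70 of its family, and Jak1 took 74.6% ± 0.89 of the Janus kinases. Stat3 was at 247, 191 and 198 CPM, while Stat5a and Stat5b, which act below GM-CSF and IL-3, had means of 24.5 and 23.8 CPM.

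Markers of other cell types were searched for as a check on purity. In bulk RNA, few cells with much of a transcript and many cells with little of it cannot be told apart. The 12 measured red cell markers summed to 0.965, 1.62 and 1.62 CPM, and Alas2, Slc4a1 and Epor had no count. The 10 B-cell markers summed to 16.8, 20.7 and 20.02 CPM, nearly all from Cd79b (15.2, 19.7 and 17.7), with Cd79a, Pax5 and Fcer2a at 0. The 12 T-cell markers summed to between 20.7 and 28.4 CPM, mostly Bcl11b, with Cd3g, Cd4 and Cd8a at 0, and the 8 NK-cell markers to between 19.0 and 19.9 CPM, nearly all Nkg7 (19.4, 19.7 and 18.7). Cd79b, Bcl11b and Nkg7 were thus the single members of their lists at 10 CPM or more. Stromal markers summed to 10.1 to 13.2 CPM, with Col3a1, Dcn, Lum, Pdgfra and Cxcl12 at 0, and endothelial ones to 19.4 to 33.2 CPM, mostly Pecam1, with Cdh5, Tek and Robo4 at 0. Alb, Ttr and Krt5 had no count. The epithelial cadherin gene Cdh1 was at 14.3, 11.3 and 7.82 CPM.

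Genes of neighbouring myeloid types were somewhat higher. The 16 markers of mast cells, basophils and eosinophils summed to 82.4, 136 and 125 CPM, led by Prg2, the eosinophil major basic protein (37.4, 79.4 and 59.5 CPM), and Hdc, which makes histamine (20.4, 23.0 and 24.9). Tpsb2, Tpsab1, Mcpt4 and Il5ra were at 0 and Fcer1a under 1 CPM. The 12 dendritic cell markers summed to 48.1, 54.6 and 56.3 CPM, of which H2-Ab1, a class II antigen-presentation chain, gave 39.1, 44.8 and 43.5. Its partner chain H2-Aa was at 1.19, 1.47 and 1.08 CPM, and the class II activator gene Ciita was under 1 CPM in each library. Megakaryocyte markers summed to between 13.4 and 17.5 CPM, with Gp1ba at 0. Of transcripts that mark sex, Xist, the noncoding RNA of the silenced X chromosome, was at 72.6, 70.3 and 117 CPM, and Eif2s3y, Kdm5d and Uty were at 0.

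In glycolysis, 24 of 31 genes were at 1 CPM or more and single isoforms dominated. Aldoa, aldolase, was at 1877, 2380 and 2150 CPM and took 99.0% ± 0.22 of its family per kb. Pkm, pyruvate kinase, took 99.998% ± 0.0029, Ldha, lactate dehydrogenase, 99.7% ± 0.095, the glucose transporter gene Slc2a1 98.0% ± 0.49 and the lactate exporter gene Slc16a3 93.2% ± 1.93. Hexokinase was shared: Hk3, the form of myeloid cells, held 41.9% ± 0.77, Hk1 35.4% ± 3.26 and Hk2 the rest per kb, while Hk1 led by plain CPM. Likewise Pfkl led phosphofructokinase per kb (55.1% ± 2.27) and Pfkp by plain CPM (59.6%). The pentose phosphate genes Pgd (1398, 1283 and 1049 CPM), Tkt (849, 1001 and 681) and Taldo1 (784, 685 and 666), which make NADPH and ribose, stood beside Pkm at 939, 1252 and 1242 CPM. By these values Pgd and Tkt overlapped with Pkm, and Taldo1 lay below it in every library. Of the 9 pentose phosphate genes 6 were at 100 CPM or more.

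Gapdh, Pgk1, Pgam1 and Eno1, enzymes of the lower part of glycolysis, were listed at low levels. Gapdh was at 1.93, 3.60 and 2.21 CPM, Pgam1 had a mean of 1.46, Pgk1 of 7.54 and Eno1 of 32.3 CPM. Of the words of their transcripts 81.9%, 41.6%, 67.4% and 72.2% also occur in another annotated gene, so these levels are uncertain, more so than that of Aldoa (14.0% shared).

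In the citric acid cycle all 29 genes were at 1 CPM or more, with a median of 102 CPM. Mdh2 led (711, 682 and 644 CPM), and Idh2, the mitochondrial isocitrate dehydrogenase, took 59.0% ± 1.20 per kb against 41.0% for Idh1. The 22 nuclear genes listed for the respiratory chain, a choice of the full set, were each at 10 CPM or more, and of these Atp5a1 (769, 787 and 655 CPM) and Atp5b (613, 730 and 621) were highest by CPM and Cox6a1 highest per kb (955 ± 51.7). Atp5g3, an ATP synthase gene outside the list, was higher, at 1587, 1216 and 1221 CPM. Of the 13 mitochondrial mRNAs 8 were at 1 CPM or more; mt-Nd4 was at 2740, 2344 and 4383 CPM and mt-Nd1 at 1907, 1781 and 2937, both highest in control library 3. mt-Co3, mt-Atp6, mt-Atp8 and mt-Nd4l had no count, and mt-Co2, all of whose words are shared with another annotated gene, had 1 count in all. How reads that map to several places were counted is not stated, so the levels of these mRNAs are uncertain and do not show that they are absent.

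Of amino acid genes, Psat1, which makes serine, was at 652, 661 and 595 CPM and first per kb (243 ± 13.6), apart from Asns, asparagine synthetase (105 ± 11.3). The first enzyme of the serine route, Phgdh, was at 19.6, 17.1 and 13.6 CPM with 62.7% of its words shared. The mitochondrial Bcat2 took 95.9% ± 1.92 of the branched-chain transaminases, leaving Bcat1 at 5.05, 3.09 and 5.36 CPM. In one-carbon and nucleotide synthesis Mthfd2 was at 371, 318 and 298 CPM and took 99.96% ± 0.015 against Mthfd2l, and Shmt2 took 76.0% ± 2.68 against Shmt1. MTHFD2 and SHMT2 are mitochondrial enzymes of one-carbon metabolism. Among redox genes Gpx1 (1657, 1663 and 1459 CPM), Fth1, ferritin (1191, 1565 and 1198), and Prdx5 (1184, 1232 and 1094) were highest. Gsr, glutathione reductase, spread widely, at 1255, 955 and 518 CPM. Of 26 lipid genes all were at 1 CPM or more, led by Scd2 (357, 331 and 306 CPM) and Fasn (307, 244 and 244).

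RNA-binding proteins were among the most abundant transcripts. Of the 59 listed for roles in stem cells, mRNA stability and RNA methylation, 56 were at 1 CPM or more and 30 at 100 or more, with a median of 116 CPM. High levels were measured for Pabpc1, the poly(A)-binding protein (2414, 2908 and 2087 CPM), Ncl, nucleolin (2177, 2060 and 2059), and Npm1, nucleophosmin (1318, 1076 and 1370, with 40.9% of its words shared). Per kb Pabpc1 (847 ± 142), Npm1 (768 ± 96.2) and Ybx1 (601 ± 108) stood in this order by mean. All 27 hnRNP genes, whose products package nascent RNA, were at 1 CPM or more, with a median of 256 CPM. Hnrnpab (1334, 1346 and 1170 CPM) and Pcbp1 (1756, 1070 and 855) were highest, and Hnrnpa1 the second lowest with a mean of 2.29 CPM and 46.5% of its words shared.

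Syncrip, the hnRNP-like gene that the other samples of the series target, was at 270, 256 and 231 CPM in these controls (253 ± 20.1, SD, n = 3), rank 720 by CPM and 2734 per kb. It lies at chr9:88447009-88482574 on the minus strand, and 10.3% of its words are shared. Per kb it took 91.3% ± 0.48 of the sum with its closest relative Hnrnpr, which was at 56.7, 53.7 and 53.5 CPM. By CPM, Syncrip lay close to the median of the 27 hnRNP genes (256 CPM). Per kb it lay below their median of 37.7 CPM per kb.

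Other RNA-binding genes of leukaemia stem cells gave a mixed picture. Msi2, a translation regulator required by myeloid leukaemia cells, was at 33.0, 35.1 and 33.0 CPM, and Msi1 stayed under 1 CPM. Igf2bp3, a fetal mRNA-binding protein, was at 195, 221 and 187 CPM and took 97.5% ± 0.94 of its family per kb, with Igf2bp1 under 1 CPM. Lin28a, which blocks let-7 microRNA maturation and is typical of embryonic cells, was at 80.1, 76.2 and 65.3 CPM with no shared words, whereas its relative Lin28b stayed under 1 CPM. Of the RNA methylation genes, the methyltransferase genes Mettl3 and Mettl14 had means of 19.8 and 35.6 CPM, the demethylase gene Alkbh5 was at 127, 108 and 105 and Fto at 52.2, 62.7 and 62.9. Of the splicing genes mutated in leukaemia, Srsf2 was at 697, 618 and 628 CPM and Sf3b1 at 335, 341 and 332, with U2af1 at 232, 215 and 241 (59.0% of words shared).

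Of 34 genes recurrently mutated in human myeloid leukaemia, 32 were at 1 CPM or more. The 2 others were Flt3 and Wt1, which had means under 1 CPM. The cohesin genes Rad21 (476, 442 and 514 CPM), Smc1a (448, 444 and 485) and Smc3 (304, 300 and 305) were among the highest. Trp53, the tumour suppressor p53, varied most of those at 20 CPM or more, at 94.7, 70.1 and 32.5 CPM. Among its targets Cdkn1a, the cell-cycle inhibitor p21, was at 262, 322 and 297 CPM and Mdm2 at 99.2, 91.9 and 103, neither in the order of Trp53. Cdkn2a, which encodes p16 and p19ARF, was at 37.6, 37.6 and 60.9 CPM.

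Of 35 genes of the cell cycle and survival, 34 were at 1 CPM or more and 15 at 100 CPM or more, with a median of 78.8 CPM. The highest by CPM was Top2a, a topoisomerase of dividing cells, at 1072, 1091 and 1224 CPM, and the replication helicase gene Mcm5 was at 408, 350 and 378. The E cyclin genes were lower, with Ccne1 at 30.4, 24.4 and 24.1 CPM and Ccne2 at 47.6, 47.3 and 45.1. Ccnd3 took 81.6% ± 2.21 of the D cyclins per kb. Its kinase partners changed order with the scale: Cdk4 held 70.6% per kb and Cdk6 70.0% by plain CPM. Among survival genes Mcl1 took 72.4% ± 2.47 and Bcl2l1 24.4% ± 2.49 per kb, and Bcl2 was at 10.4, 12.3 and 10.9 CPM. Dnmt1, the maintenance DNA methyltransferase, was at 546, 345 and 296 CPM and took 90.2% ± 3.03 of its family, and Ezh2, the Polycomb methyltransferase, took 93.8% ± 0.69 against Ezh1. Tet2 was at 14.0, 13.2 and 11.9 CPM. Of 18 genes of antigen presentation and checkpoint ligands, 7 were at 100 CPM or more and the median was 12.8 CPM. The class I genes B2m (1671, 1890 and 1706 CPM) and H2-K1 (948, 804 and 696) were the highest. Cd274 (PD-L1) was at 17.1, 18.9 and 18.3 CPM, and Cd80, which had a mean of 2.37 CPM, was at 4.33 in control library 3 and at 1.31 and 1.47 in the others.

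**Figure D4:**
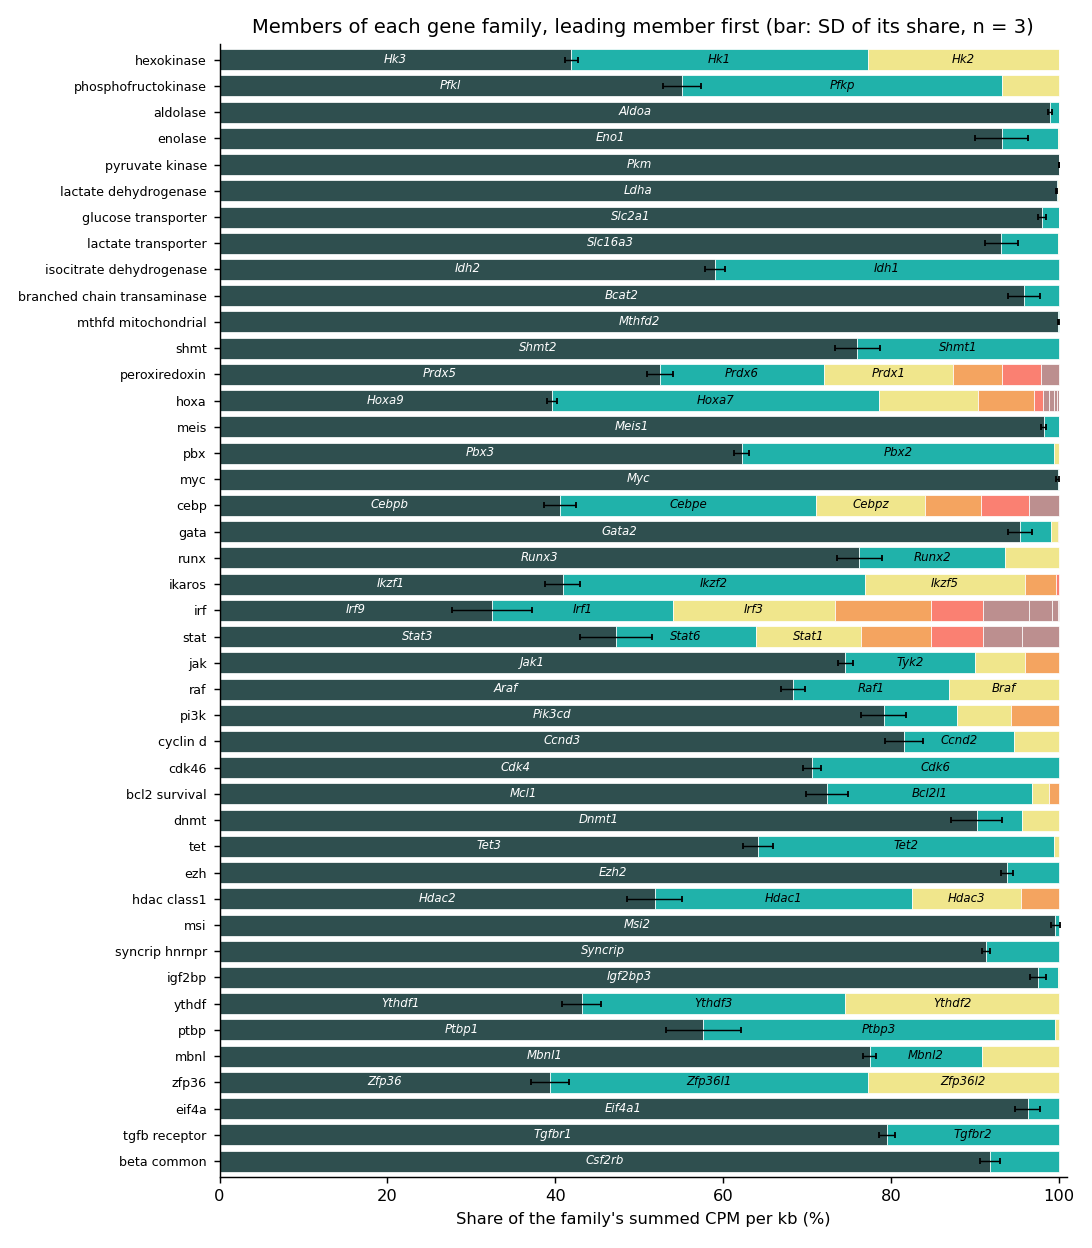
Share (%) of a gene family's summed CPM per kb that each member holds, with the leading member on the left; black bars are the SD of its share over 3 control libraries. Aldoa, Ldha and Mthfd2 each hold over 90% of their families, and in others such as hexokinase several members share the level.

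Across 45 families of related genes, the first and second members stood apart in 41, and the first held over 90% of the summed CPM per kb in 19. The same gene led in 38 families by plain CPM and in 42 with the union of exons as length. Length mattered to such rankings in these libraries. Over 10135 protein-coding genes at 1 CPM or more in all libraries, Spearman's rho between length and CPM was −0.063, a correlation across genes, which are not independent replicates. The median CPM was 35.9 in the 2536 shortest genes and 26.1 in the 2534 longest, while the median per kb was 23.2 and 3.96. Dividing by length therefore placed short genes above long ones, as for Dpy30. Both scales are given for some of the genes where they disagree, not for all. The libraries were primed from oligo-dT, and the part of priming in this relation was not tested.

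Of the listed genes, 659 pairs stood next to each other in their lists by CPM per kb. The members of 270 pairs were apart and those of 389 overlapped, and 358 pairs kept their order in all 3 libraries. Fine order within lists was thus often within the spread.

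Ribosomal protein genes showed how shared sequence went with low counts. Their median was 71.0 CPM, with 36 of 85 at 100 CPM or more. Rpl4 was the highest at 3591, 3659 and 3778 CPM. Shared words were counted for the 82 of them at a mean of 1 CPM or more. Rps6, Rpl10a and Rpl10l, which had lower means, were left out of the groups that follow. In the 17 genes with under 25% of words shared the median was 835 CPM, in 53 with 25% to 75% it was 71.0 and in 12 with 75% or more it was 8.73. Over all protein-coding genes at a mean of 1 CPM or more the medians were 28.6 (9743 genes), 25.3 (488) and 13.8 CPM (109). Some copies were high where the parent was low: Rps13 had a mean of 2.56 CPM and the entry Rps13-ps2 1279 CPM. Fau had 3.52, 5.22 and 3.69 CPM, and Gm9843, all of whose words also occur in Fau, had 1549 ± 250.4 CPM. Among housekeeping genes, Actg1 was under 1 CPM (56.5% shared), Ppia at 2.67, 3.46 and 3.30 (28.4%) and Eef1a1 at 49.8, 81.8 and 55.3 (58.9%), while Hprt, with no shared words, was at 437, 431 and 407. Not all genes with shared words were low: Tuba1b was at 904, 713 and 739 CPM with 73.5% shared and Hspa8 at 744, 708 and 811 CPM with 73.2%. The counting of reads that map to several places is not stated, so the levels of genes with many shared words are uncertain.

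The starts of ribosomal protein genes are known for a pyrimidine tract (the TOP motif), which ties their translation to growth signals. The word CTTTCC was sought on the gene's strand within 30 bases of the start. A match could lie on either side of the start, so the shares are of this word and not of TOP motifs. The word stood in 17.1% of 76 windows of these genes and in 2.89% of all 32851. By level it was 5.06% at 1000 CPM or more (4 of 79 windows) and between 2.59% and 3.16% in the other classes. Windows of 30 bases around the start are shown for a high, middle and low member, with the match in capitals.
Rpl13a: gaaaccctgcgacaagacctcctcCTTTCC
Rps10: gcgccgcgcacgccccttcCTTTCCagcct
Rpl38: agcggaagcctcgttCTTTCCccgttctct
Rpl35: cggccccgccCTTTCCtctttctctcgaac
The 4 genes had mean levels of 1224, 234, 109 and 3.22 CPM. The windows lie at chr7:45128731-45128760 (minus), chr17:27635230-27635259 (minus), chr11:114668565-114668594 (plus) and chr2:39005117-39005146 (minus) in GRCm38.p6.

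The spread over the control libraries was small for most genes. Between pairs of libraries Pearson's r of log2(CPM + 1) over 11637 genes was 0.992, 0.988 and 0.992, a description across genes, lowest for libraries 1 and 3. The biological coefficient of variation common to all genes was 0.134, and with 1 library left out it ran from 0.112 to 0.161. The median coefficient of variation (CV) was 17.5% at 1 to 10 CPM, where counting error alone gave a median of 12.6%, 9.59% at 10 to 100 CPM, 8.72% at 100 to 1000 CPM and 11.7% in the 103 genes at 1000 CPM or more, where counting error alone gave 0.637%. Meis1 (78.5 to 83.4 CPM) and Chd4, a chromatin remodeller at 224 CPM in each library, were among genes with little spread. Chd4 had the lowest CV of all genes at 100 CPM or more, 0.0668%, under the 1.61% that counting error alone gives. A CV below counting error does not measure how steady a gene's level is.

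The genes with the widest spread at 20 CPM or more were of mixed kinds. Provisional symbols (those ending in Rik, or made of Gm, LOC, BC or AK and digits) were left out of this ranking; 1 of them, F630028O10Rik, an antisense transcript at 26.0, 36.2 and 159 CPM, had a CV of 100.3%. Among the other symbols the highest CV, 89.3%, was that of mmu-mir-6236 (22.8, 69.8 and 11.4 CPM), whose mean without control library 2 was 0.495 times its value over all libraries. The small nucleolar RNA host genes Snhg5 (30.6, 37.2 and 107 CPM) and Snhg1 (54.6, 67.9 and 165) and the splicing-related gene Sugp2 (15.1, 15.5 and 37.2) were high in control library 3. So were Lpl, lipoprotein lipase (86.2, 106 and 229 CPM), Ccl3, and Spp1, osteopontin (154, 156 and 354). Without control library 3 the means of Snhg5, Snhg1 and Sugp2 were 0.570, 0.626 and 0.663 times those over all libraries. Siah1b (84.9, 48.1 and 27.6 CPM), Eif4ebp2 (90.3, 47.1 and 32.7) and Gsr were highest in control library 1. Of the 100 genes with the highest CV among them, control library 1 was the highest in 52, library 2 in 13 and library 3 in 35, against 2638, 1548 and 1804 of the 5990 genes at that level with such symbols and ribosomal RNA left out. Few of these genes were thus highest in library 2.

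**Figure D5:**
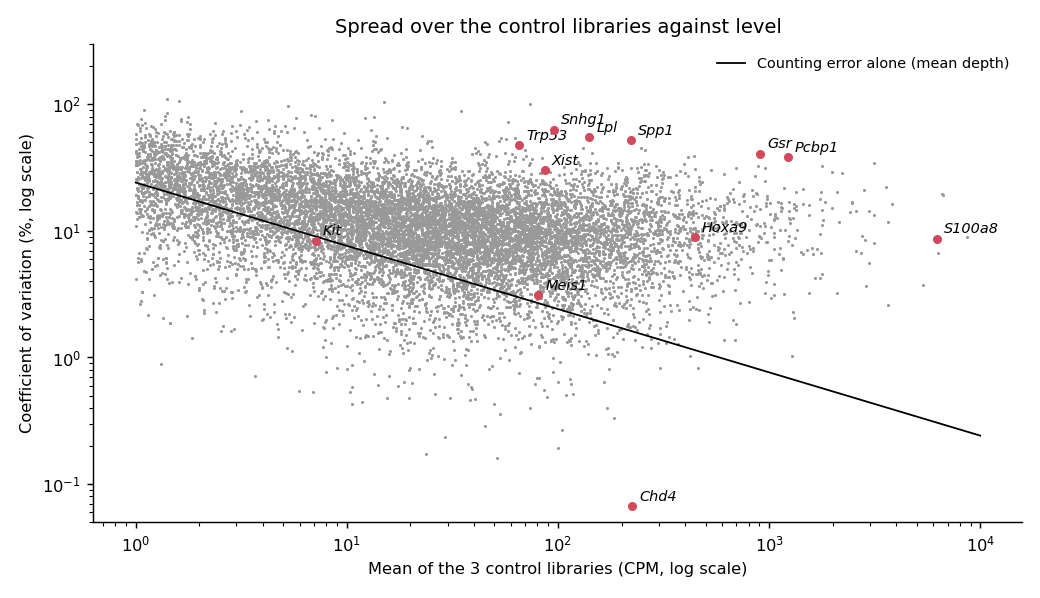
Coefficient of variation (%, log scale) over the 3 control libraries against mean CPM (log scale) for genes at a mean of 1 CPM or more; the line is the CV that counting error alone would give at mean depth. Meis1 and Kit lie close to the line, while Trp53, Lpl, Spp1, Snhg1 and Gsr lie far above it.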

How the data were processed

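The deposited values are the authors' raw read counts, in a table of gene symbols for each library. Per the labels' protocols, cDNA synthesis started from oligo-dT and continued with random decamers, each carrying a linker. Per the submitters' processing notes, STAR 2.3.0e, HTSeq 0.6.0 and the mm10 build were used; neither the annotation and strand setting nor the treatment of reads that map to several places is stated. Without the strand setting, overlapping and antisense genes cannot be told apart.

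Each table held 39179 entries for 38926 symbols; the 429 entries of 176 repeated symbols were summed (0.291% of control counts). The 3 control libraries (18268263, 13683660 and 19483923 counts) were scaled by TMM in edgeR 4.0.16 (R 4.3.3) on the 12013 genes that filterByExpr kept (factors 0.964, 0.994 and 1.043) and given as CPM. Genes outside that filter kept their levels. Transcript lengths came from GENCODE M21 (GRCm38): 35656 symbols matched directly, 1742 through older symbols and 1528 not at all. Shared sequence is the percent of 50-base words, taken at every 10th base of the longest coding transcript, found in another gene's transcript. Read length is not stated, so this percent is a guide only. The dispersion estimate was tested on simulated data. No test between groups was made.

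Named genes were the label markers, the Hoxa genes, the 20 highest by CPM, the highest per kb of each list, family leaders and the most variable genes with settled symbols; other genes named were chosen after their values were seen. Some genes that this rule covers are not reported here. The members and lists were chosen with earlier results of these data known. Of 920 list entries, 3 had no symbol in the tables (Hoxd4, Hbb-b1 and Hbb-b2). Alternatives were other scalings, DESeq2 1.42.0 size factors, other thresholds and lengths, leaving out ribosomal RNA entries and leaving out each library.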

Additional observations from a re-analysis of the deposited data

How the results depend on the processing

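The number of genes at 1 CPM or more in all control libraries, 11248, was 11234 with total counts, 11248 with DESeq2 size factors, 11094 with TMM over all 9 libraries, 11337 without Gm26924, mt-Rnr1 and mt-Rnr2, 12118 at 0.5 CPM and 10329 at 2 CPM, and 11316 to 11448 with 1 library left out. The 100 genes with the most counts held 26.9% of counts with the ribosomal RNA entries, 21.8% without them and 26.4% to 27.8% with 1 library left out. The common coefficient of variation of 0.134 ran from 0.126 to 0.141 under other filters and scalings. Of 754 gene levels, 334 moved by more than 1 SD, all lower, with TMM over all 9 libraries (median ratio 0.897), and 211, all higher, without the ribosomal RNA entries (median ratio 1.075), so levels hold relative to the scaling. Of 45 family leaders' shares, 33 moved by more than 1 SD with no division by length and 27 with the union of exons. Leaving out 1 library moved 6 levels by over 1.5 times for library 3 (Hoxa3, Snhg1, Snhg5, Sugp2, Cd80 and Cxcl2; Cd80 to 0.574 and Cxcl2 to 0.641 times) and 1 for library 2. No paired analysis was possible because 1 group was studied and no test was made. Depth limits genes under about 1 CPM, where the levels rest on few counts.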
